A study of Mus musculus with 8 samples.

Results

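The genes described here encode splicing factors and the heterogeneous nuclear ribonucleoproteins (hnRNPs), measured in mouse neural stem cells grown as neurospheres with rcCHIL3 or with a medium containing growth factors. A gene was taken as a member when its symbol began with Srsf, Hnrnp, Snrp, Sf3a, Sf3b or Prpf, or with Lsm and a digit, and when a probe set was annotated to it alone. This rule found 71 of the 18194 genes with such a probe set, and each gene was represented by its brightest probe set on average over the 8 arrays. Of the 71 genes, 68 passed the filter on low signals, which 8964 genes passed in all. The probe sets chosen for the remaining 3, Srsf12, Lsm11 and Snrpn, were too dim to be tested. Probe sets annotated to several genes were not read, so a dim probe set does not show that the gene is not expressed. The arrays were Affymetrix Mouse Genome 430 2.0, and the values are signals rescaled to an average of 100 on each array.

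The 4 groups were secondary neurospheres cultured with rcCHIL3 or with MHM + GF for 3 days and with rcCHIL3 or with MHM + GF for 7 days, with 2 arrays each from independent experiments by the study's description. rcCHIL3 is mouse chitinase-like protein 3 (ECF-L in the labels), collected in the medium of HEK293T cells, a human embryonic kidney line, that had been transfected with Chil3. MHM + GF is the base medium with the growth factors FGF-2 and EGF, and the labels call it MHM without ECF-L. The HEK293T-conditioned medium and the growth factors therefore differ between the groups together with CHIL3, and their effects cannot be told apart here. RNA came from whole neurospheres, so fewer cells of a type and less RNA per cell cannot be told apart either. The 8 arrays were alike in depth of signal, with 30.1% to 31.4% of all probe sets reaching the filter level and correlations of 0.992 to 0.994 between the arrays of a group. Markers of neural stem cells and progenitors were bright on all arrays, with 6 of 6 markers measured passing the filter, whereas none of 5 microglial and none of 4 endothelial markers passed it.

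The spliceosome removes introns from pre-mRNA, and most of its core is built from small nuclear ribonucleoproteins (snRNPs), each an snRNA with a ring of proteins. The Sm proteins form the ring of the U1, U2, U4 and U5 snRNPs, LSM proteins form that of U6, the SF3A and SF3B complexes help U2 to hold the branch site, and PRPF proteins act in the tri-snRNP and in activation. SR proteins bind exons and mostly favor splice sites, whereas hnRNPs coat nascent RNA and often repress them. Neural progenitors and neurons splice many exons differently, and the balance of such proteins is known to take part in this.

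At 3 days, 31 of the 68 genes tested were lower in rcCHIL3-treated neurospheres than with MHM + GF and 4 were higher (limma, Benjamini-Hochberg adjusted p under 0.05). Over all 15679 probe sets tested, 22.5% were lower and 27.7% were higher. The median log2 change was -0.17 over the splicing genes and 0.05 over all 8964 genes tested, one probe set for each. The summed signal of the splicing genes was 38080 and 39040 on the 2 rcCHIL3 arrays, against 43880 and 43400 on the 2 MHM + GF arrays. At 7 days, 22 genes were lower and 1 was higher, against 22.7% and 21.3% of all probe sets, with a median of -0.15 against -0.01 over all genes tested. The sums were then 36980 and 36900 with rcCHIL3, against 41960 and 40850 with MHM + GF. The changes were small in size. Only 2 genes fell past 1.5-fold at 3 days and none did at 7 days, and the median standard error of a gene's log2 change was 0.08. By class, the median change at 3 days was -0.31 for SR, -0.22 for hnRNP, -0.32 for Sm and -0.17 for LSM genes, against -0.05 for SF3A and SF3B, -0.04 for PRPF and 0.03 for U1 and U2 genes. At 7 days it was -0.22 for hnRNP, -0.21 for Sm and -0.20 for SF3A and SF3B genes, -0.10 for LSM, -0.08 for SR, -0.06 for U1 and U2 and -0.05 for PRPF genes.

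**Figure D1:**
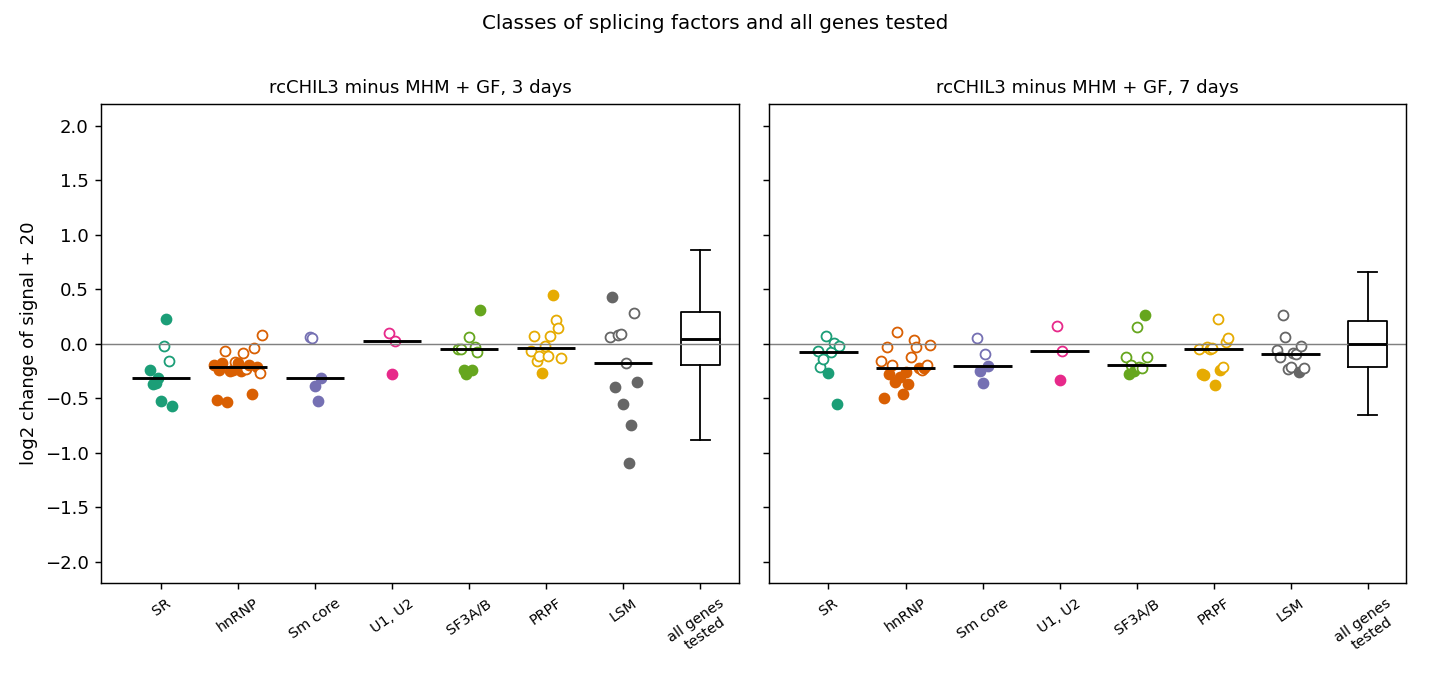
Log2 change of signal + 20 (y axis), rcCHIL3 minus MHM + GF, for each splicing gene by class (x axis) at 3 days (left) and 7 days (right). Filled points passed the adjusted threshold, open points did not, black bars are medians, and the box gives quartiles and the 5th to 95th percentiles of all genes tested. The medians of SR, hnRNP and Sm genes lay at -0.31, -0.22 and -0.32 at 3 days, with the median over all genes tested at 0.05.

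The counts depended on the scale of the arrays. With the signals on the deposited scale, where the arrays' averages ran from 267.3 to 316.6, 22 lower genes at 7 days became 5 and the median became -0.053, while at 3 days the median was -0.26. On that scale 19.2% of all probe sets were lower and 14.2% higher at 3 days, and 10% were lower and 17.6% higher at 7 days. It moved the median over all probe sets to -0.05 at 3 days and 0.07 at 7 days, and that of the 7-day minus 3-day difference in effect to 0.12, against 0.03, -0.01 and -0.04 after rescaling. Of the genes called after rescaling, 27 of 35 at 3 days and 4 of 23 at 7 days kept their call under the deposited scale, quantile normalization and median centring alike, the 4 being Hnrnpa1, Hnrnph1, Snrpe and Srsf6. Leaving out rcCHIL3 replicate 1 at 3 days reduced the 31 lower genes at that day to 20 and the 4 higher ones to 2.

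Genes of dividing cells and cell type markers also differed between the media. Of 17 proliferation genes measured, 17 were lower with rcCHIL3 at 3 days (median log2 change -2.11) and 16 at 7 days (-1.16), among them Mki67 (-2.85 and -1.83), the Ki-67 antigen, and the topoisomerase Top2a (-2.68 and -1.72). Their summed signal was 2415 and 2307 with rcCHIL3 against 8311 and 8450 with MHM + GF at 3 days, and 1767 and 1781 against 3730 and 3754 at 7 days. Over time in MHM + GF, 16 of the 17 proliferation genes fell and none rose (median -1.41). Of the 68 splicing genes 22 fell and 13 rose (median -0.05), and of all probe sets 26% fell and 31.1% rose. Neural stem and progenitor markers summed to 6439 and 6713 with rcCHIL3 against 9012 and 8735 with MHM + GF at 3 days, and to 7235 and 7203 against 8126 and 8311 at 7 days. Neuroblast and neuron markers had higher sums with rcCHIL3 at 3 days, 1815 and 1739 against 1347 and 1394 with MHM + GF, and lower ones at 7 days, 1300 and 1204 against 2737 and 2795. Astrocyte markers summed to 5818 and 6078 with rcCHIL3 against 4973 and 4871 with MHM + GF at 3 days, and to 7167 and 7520 against 7152 and 7270 at 7 days. Oligodendrocyte markers summed to 4847 and 4935 against 4098 and 4188 at 3 days, and to 3993 and 4122 against 4118 and 4005 at 7 days. The 3 ependymal and choroid plexus markers, all tested, summed to 277.9 and 608.9 with rcCHIL3 against 111.6 and 245.4 with MHM + GF at 3 days, and to 958.3 and 771.5 against 451.6 and 751.3 at 7 days, with the arrays of a group far apart. Within the lists, markers went opposite ways at 3 days. Of the astrocyte markers 3 were higher and 3 lower, and of the oligodendrocyte markers 3 and 2. Stem and progenitor markers counted 1 and 4, neuroblast and neuron markers 5 and 1, and ependymal ones 2 and 1. At 7 days the counts were, in this order, 2 and 2, 1 and 2, 0 and 3, 0 and 5, and 2 and 0. The shares of all probe sets were 27.7% and 22.5% at 3 days and 21.3% and 22.7% at 7 days. The part of dividing cells and of these cell types in the changes of the splicing genes was not tested.

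At 3 days 12 of 19 hnRNPs were lower with rcCHIL3 and none was higher, and 18 of the 19 had a negative estimate. At 7 days 9 were lower and none higher. The lower shares were 63.2% and 47.4%, against 22.5% and 22.7% of all probe sets. Hnrnpd, which encodes AUF1, a protein that binds AU-rich elements and governs mRNA decay, had signals of 501 and 498 with rcCHIL3 against 742 and 725 with MHM + GF at 3 days, and 444 and 475 against 603 and 579 at 7 days. The groups did not overlap at either day, and the log2 changes were -0.54 ± 0.06 (SE, limma adjusted p = 2.67e-05) and -0.35 ± 0.06 (adjusted p = 0.00098). The other tested probe set of Hnrnpd differed by -0.08 and -0.16 and passed at neither day. Hnrnpa1, an exon silencer that often opposes SR proteins, had signals of 567 and 694 with rcCHIL3 against 992 and 828 with MHM + GF at 3 days, and of 582 and 494 against 838 and 700 at 7 days. Its log2 changes were -0.52 ± 0.12 and -0.50 ± 0.12 (limma adjusted p = 0.00418 and 0.00661), with wide spread between arrays of a group. Without rcCHIL3 replicate 1 at 3 days its adjusted p was 0.0572, and at 7 days it was 0.0635 without rcCHIL3 replicate 2 and 0.0532 without MHM + GF replicate 1.

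Hnrnph1 and Hnrnph3 belong to the G-run binding hnRNP H and F family. Hnrnph1 had 1107 and 1080 with rcCHIL3 against 1294 and 1171 with MHM + GF at 3 days, a log2 difference of -0.17 that missed the threshold (limma adjusted p = 0.089). At 7 days it had 1038 and 900 against 1369 and 1304, a log2 change of -0.46 ± 0.08 (limma adjusted p = 0.000638). Its other tested probe set differed by 0.16 and -0.21, neither past the threshold. Hnrnph3 was lower at both days, with log2 changes of -0.26 ± 0.06 and -0.37 ± 0.06, and so were Hnrnpf (-0.24 and -0.31) and Hnrnph2 (-0.18 and -0.26). By their brightest probe sets the 4 genes were all lower at 7 days, by -0.26 to -0.46. Of the 4 tested probe sets of Hnrnpf, 3 were lower at 3 days and 1 at 7 days, where they ran from -0.31 to -0.11. At 3 days Hnrnpf lost its call without rcCHIL3 replicate 1 (adjusted p = 0.211) or MHM + GF replicate 2 (0.126), and Hnrnph2 lost its own without any 1 of the 4 arrays of that day.

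Hnrnpm, which promotes exon skipping, was lower at 3 days by a log2 change of -0.47 ± 0.08 and at 7 days by -0.22 ± 0.08 (limma adjusted p = 0.000496 and 0.0407). The 7-day call was lost in 5 of 8 fits without 1 array, with an adjusted p of up to 0.26 (without MHM + GF replicate 1 at 7 days). The brightest hnRNP probe set was that of Hnrnpk, a poly(C)-binding protein, at 1681 and 1785 with rcCHIL3 against 1926 and 1755 with MHM + GF at 3 days. The arrays of the groups overlapped and the log2 difference was -0.09 ± 0.08 (limma adjusted p = 0.39). Of the 3 tested probe sets of Hnrnpk, 2 were lower at 3 days and 1 at 7 days, with differences of -0.27 to -0.09 and of -0.19 to -0.12. By the brightest probe sets, Hnrnpr had the smallest difference of the class at 3 days, -0.04 ± 0.09, but its 4 tested probe sets ran from -0.13 to 0.58 and the dimmest was called higher. Hnrnpul2 was the only hnRNP whose brightest probe set had a positive estimate at 3 days (0.08, not past the threshold), and its other one was called lower (-0.33).

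**Figure D2:**
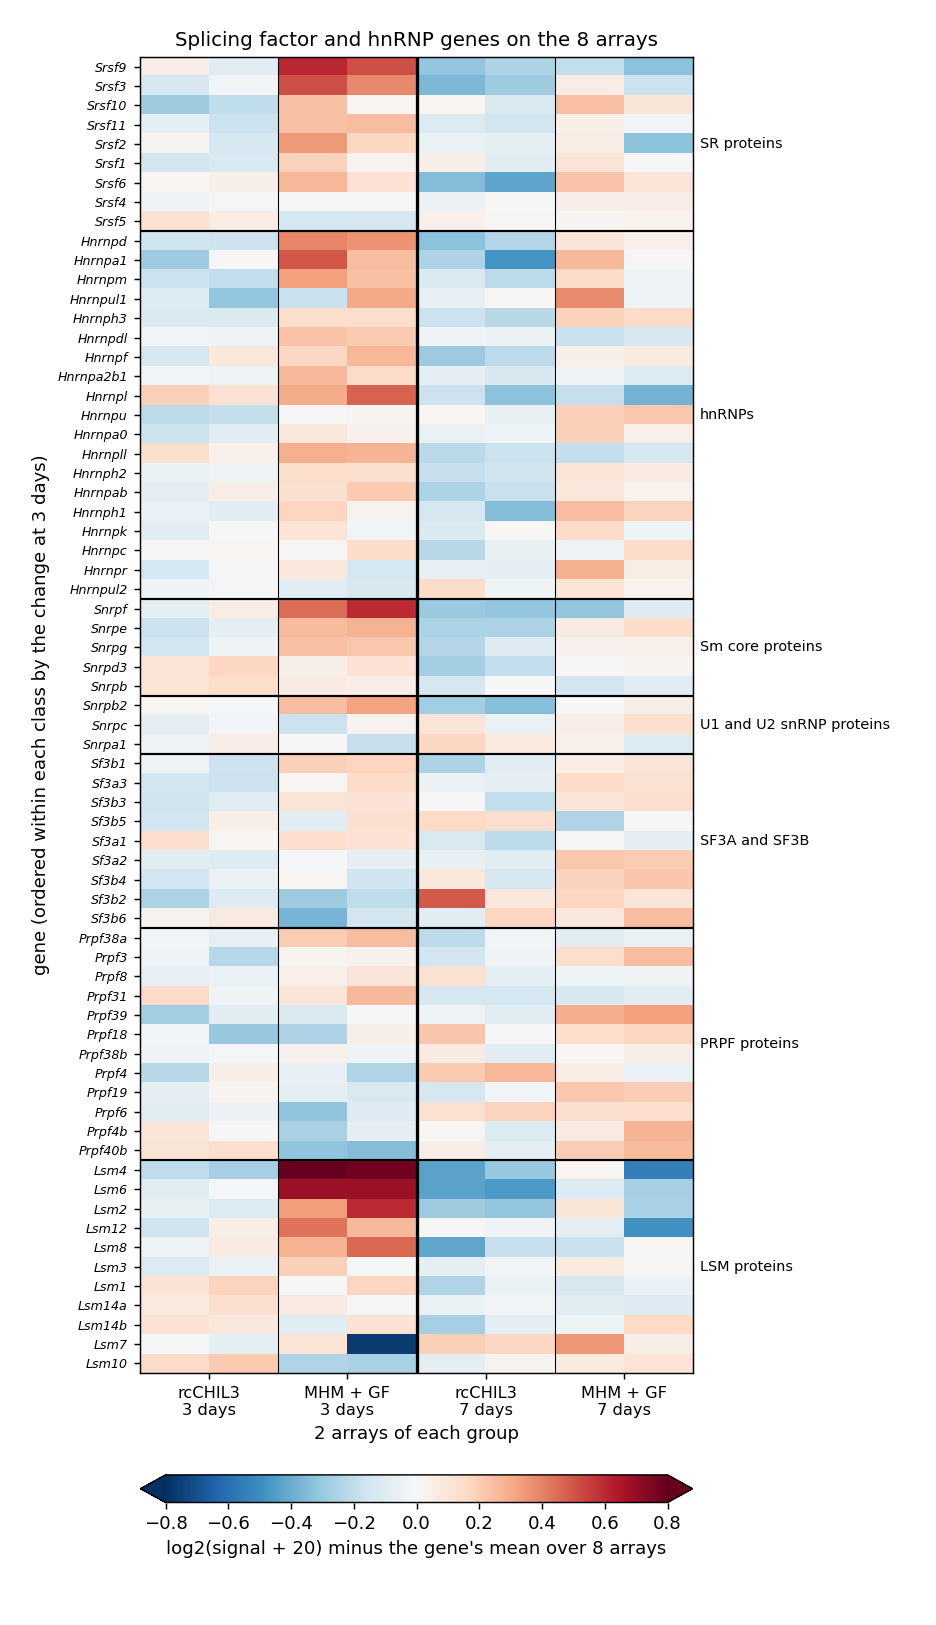
Heat map of the 68 splicing genes tested (rows, grouped by class) on the 8 arrays (columns, 2 for each group), colored by log2(signal + 20) minus the gene's own mean over the arrays. The 2 MHM + GF columns at 3 days have the highest medians over the genes (0.105 and 0.118). This group had the highest mean of the 4 for 32 of the 68 genes, a count not made over all genes tested.

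Among the SR proteins, 6 of 9 were lower at 3 days (66.7%, against 22.5% of all probe sets) and 1 was higher. At 7 days 2 were lower (22.2%), which is near the share of all probe sets (22.7%) and is no result about the class. Srsf3, the smallest SR protein and one that links splicing to mRNA export, had signals of 605 and 653 with rcCHIL3 against 955 and 871 with MHM + GF at 3 days. At 7 days it had 512 and 540 against 690 and 586. The log2 changes were -0.52 ± 0.08 and -0.27 ± 0.08 (limma adjusted p = 0.000321 and 0.0247), and no array of one group reached the other. All 6 probe sets of Srsf3 were lower at 3 days, by -0.29 to -0.75, whereas only the brightest passed the threshold at 7 days, and not without either rcCHIL3 array of that day or MHM + GF replicate 1 (adjusted p up to 0.191). Srsf9, an SR protein with a short RS domain, had 459 and 413 against 681 and 639 at 3 days, a log2 change of -0.58 ± 0.08 (limma adjusted p = 7.37e-05). At 7 days its arrays overlapped, with 352 and 370 with rcCHIL3 against 384 and 349 with MHM + GF.

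Srsf6 showed the reverse order of days. It had 644 and 659 with rcCHIL3 against 768 and 690 with MHM + GF at 3 days, which missed the threshold (-0.16 ± 0.07, limma adjusted p = 0.098), though 1 of its 4 tested probe sets was lower. At 7 days it had 495 and 469 against 750 and 684, the largest fall of the 68 genes at that day (-0.55 ± 0.07, adjusted p = 0.000123). Srsf5, the brightest probe set among SR genes, was one of the few that were higher at 3 days, with 1389 and 1324 against 1154 and 1156 (0.23 ± 0.06, limma adjusted p = 0.00518), a call lost without rcCHIL3 replicate 1 (adjusted p = 0.0544) and on the deposited scale (0.266). At 7 days its values were 1308 and 1282 against 1290 and 1296. Srsf4 hardly differed at either day, with log2 differences of -0.02 ± 0.06 and -0.08 ± 0.06. Srsf10, an SR protein that represses splicing when dephosphorylated, and Srsf11 were lower at 3 days by -0.37 and -0.36. Srsf12, below the filter, had signals of 19.7 and 19.3 with rcCHIL3 against 47.95 and 46.1 with MHM + GF at 3 days, and 17.4 and 19.6 against 31.4 and 33.3 at 7 days.

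**Figure D3:**
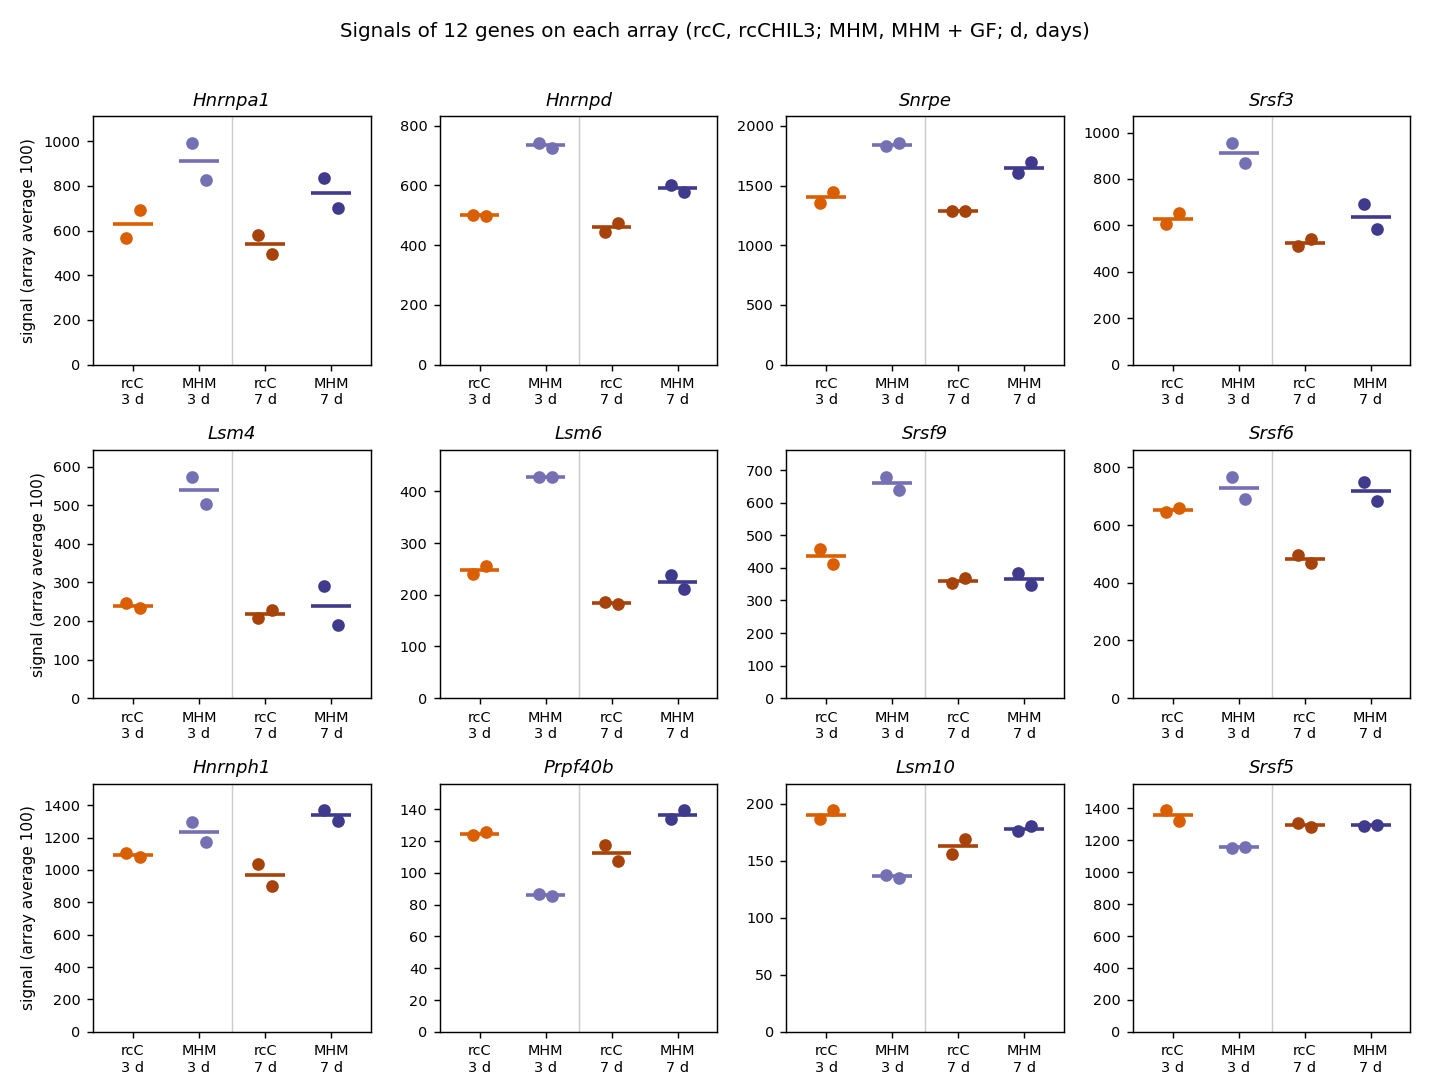
Signals of 12 splicing genes (y axis, array average 100, starting at 0), with a point for each array and a bar for the mean of its group. From left to right each panel gives rcCHIL3 and MHM + GF at 3 days, then rcCHIL3 and MHM + GF at 7 days. Hnrnpd, Snrpe and Srsf3 were lower with rcCHIL3 at both days, Lsm4 and Srsf9 at 3 days, and Srsf6 and Hnrnph1 at 7 days.

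In the Sm core 3 of 5 genes tested (60%) were lower at each day, against 22.5% of all probe sets at 3 days and 22.7% at 7 days. Snrpe, Snrpg and Snrpf, whose products sit side by side in the Sm ring, were lower at 3 days, and Snrpe, Snrpg and Snrpd3 at 7 days. Snrpe had 1358 and 1449 with rcCHIL3 against 1831 and 1857 with MHM + GF at 3 days, and 1283 and 1285 against 1603 and 1696 at 7 days. The log2 changes were -0.39 ± 0.06 and -0.36 ± 0.06 (limma adjusted p = 0.000202 and 0.000609). Snrpg was lower by -0.32 and -0.21, its 7-day call being lost in 3 of 8 fits without 1 array (either MHM + GF array or rcCHIL3 replicate 1 of that day). Snrpf was lower at 3 days only, with 409 and 449 against 594 and 663 (-0.53 ± 0.09, limma adjusted p = 0.000335), and its 7-day difference was -0.10 ± 0.09. Snrpd3 differed by 0.05 ± 0.06 at 3 days and was lower at 7 days (-0.25 ± 0.06), with an adjusted p of 0.0507 without rcCHIL3 replicate 1 of that day. Its other tested probe set was higher at 3 days (0.45) and differed by 0.15 at 7 days. Snrpb was not lower at either day (0.07 and 0.05). Snrpn, a neuronal relative of Snrpb at an imprinted locus, had signals of at most 10.9 on the 8 arrays. It had only 1 probe set annotated to it alone, and its level by other probe sets was not read. The Sm genes Snrpd1 and Snrpd2 were not among the members.

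Of the proteins of the U1 and U2 snRNPs, Snrpb2, which binds U2 snRNA, was lower at both days (-0.28 ± 0.07 and -0.34 ± 0.07, limma adjusted p = 0.00453 and 0.002). Its signals were 338 and 330 with rcCHIL3 against 399 and 421 with MHM + GF at 3 days, and 272 and 259 against 335 and 345 at 7 days. The other tested probe set of Snrpb2 differed by -0.09 and -0.01 and passed at neither day. The brightest probe sets of its U2 partner Snrpa1 and of the U1 protein Snrpc did not pass at either day, with differences between -0.06 and 0.16. Of the 3 tested probe sets of Snrpa1, 1 was lower at 3 days (-0.23) and higher at 7 days (0.39). In the SF3 complexes, 3 of 9 genes were lower and 1 higher at 3 days, and 2 were lower and 1 higher at 7 days. The lower shares were 33.3% and 22.2%, against 22.5% and 22.7% of all probe sets. The count of lower genes at 7 days is near that share and is no result about the class. Sf3b1, the large scaffold subunit that contacts the branch site region, was lower at both days (-0.28 and -0.25). That call was ended by 1 left-out array at 3 days (rcCHIL3 replicate 2) and by 2 at 7 days (rcCHIL3 replicate 1, MHM + GF replicate 2). Of the 4 tested probe sets of Sf3b1, 3 were lower at 3 days and 1 at 7 days, where they ran from -0.25 to 0.22. All 3 tested probe sets of Sf3b6 were higher at 3 days, and 2 of them, not the brightest, were lower at 7 days. By its brightest probe set Sf3b6, the subunit next to the branch point adenosine, was higher at 3 days, with 970 and 1002 against 731 and 857 (0.31 ± 0.10, limma adjusted p = 0.02). The call was lost without either rcCHIL3 array or MHM + GF replicate 1 (adjusted p = 0.173 for the last), and on the deposited scale (0.0844). By the brightest probe sets, Sf3b5 was the only splicing gene higher at 7 days, with 606 and 596 against 454 and 542 (0.27 ± 0.10, limma adjusted p = 0.0482). That call was lost in 5 of the 8 fits without 1 array, with an adjusted p of up to 0.307 (without MHM + GF replicate 1 at 7 days).

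Few PRPF genes passed the test at 3 days, 8.33% in each direction, against 22.5% lower and 27.7% higher of all probe sets. At 7 days 33.3% were lower, against 22.7% of all probe sets. At 3 days 1 of 12 was lower, Prpf38a at -0.27 (lost without replicate 2 of either medium), and 1 was higher, and at 7 days 4 were lower. Prpf19, a ubiquitin ligase of the activating complex, had 1131 and 1212 with rcCHIL3 against 1130 and 1097 with MHM + GF at 3 days, where the difference was 0.07 ± 0.06. At 7 days it had 1089 and 1177 against 1392 and 1371 (-0.28 ± 0.06, limma adjusted p = 0.00392). Prpf39, a U1-associated protein, was lower at 7 days by -0.38 ± 0.08, with 177 and 170 against 227 and 234. By the brightest probe sets, Prpf40b was the only splicing gene called in opposite directions at the 2 days. It had 124 and 126 with rcCHIL3 against 86.8 and 85.3 with MHM + GF at 3 days (0.45 ± 0.08, adjusted p = 0.000915) and 118 and 107 against 134 and 140 at 7 days (-0.24 ± 0.08, adjusted p = 0.0348). The call at 7 days was lost in 5 of the 8 fits without 1 array, with an adjusted p of up to 0.187 (without rcCHIL3 replicate 2 at 7 days). Prpf8, the central spliceosome protein, had differences of -0.13 and 0.06, neither past the threshold.

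The LSM genes ranged from -1.10 to 0.43 in log2 change at 3 days. Those of the ring that binds U6 snRNA (Lsm2, Lsm3, Lsm4, Lsm6, Lsm7 and Lsm8 measured) were lower for 4 of 6 at 3 days and for 1 at 7 days. These shares were 66.7% and 16.7%, against 22.5% and 22.7% of all probe sets. Lsm4 had the largest fall of all splicing genes, with 246 and 235 with rcCHIL3 against 574 and 502 with MHM + GF at 3 days (-1.10 ± 0.14, limma adjusted p = 6.61e-05). Signal + 20 thus fell by 53.3%. At 7 days it had 208 and 229 against 289 and 190, and the arrays overlapped. All 3 tested probe sets of Lsm6 were lower at 3 days, but only the brightest was at 7 days, where they ran from -0.26 to 0.16. Lsm6 had 241 and 256 against 429 and 428 at 3 days (-0.74 ± 0.08, limma adjusted p = 9.38e-06) and 187 and 182 against 239 and 212 at 7 days (-0.26 ± 0.08, adjusted p = 0.0167), where the call was lost without MHM + GF replicate 1 (adjusted p = 0.117) or rcCHIL3 replicate 2 (0.0782). Lsm2 and Lsm8 were lower at 3 days by -0.55 and -0.35, Lsm8 not without rcCHIL3 replicate 1 (adjusted p = 0.0936) or MHM + GF replicate 2 (0.106). Lsm2 was dim, with 39.2 and 37.3 against 58.0 and 73.6. Lsm7 had 210 and 201 against 231 and 117 at 3 days, where the MHM + GF arrays were far apart and the standard error of 0.21 was the widest in the class.

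Of the other 5 LSM genes tested, 1 was lower and 1 higher at 3 days (20% each). Over all probe sets 22.5% were lower and 27.7% higher, so these counts are no result about the group. Lsm10, part of the U7 snRNP that processes histone mRNA ends, was higher at 3 days, with 186 and 195 with rcCHIL3 against 137 and 135 with MHM + GF (0.43 ± 0.08, limma adjusted p = 0.000728). At 7 days its difference was -0.12 ± 0.08. Lsm11, the other protein that sets U7 apart, was below the filter, with 10.9 and 8.94 against 17.9 and 26.8 at 3 days. Lsm1, which replaces Lsm8 in the cytoplasmic ring of mRNA decay, had differences of 0.06 ± 0.09 and -0.06 ± 0.09. Lsm12, named for its LSM domain, was dim and lower at 3 days (-0.40 ± 0.14, limma adjusted p = 0.0307), with 36.5 and 45.1 against 65.0 and 55.3. It missed the threshold without rcCHIL3 replicate 1 (adjusted p = 0.195) or MHM + GF replicate 1 (0.166). Lsm14a, a P-body protein, was the brightest of the class and had differences of 0.08 and 0.06.

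Over both days, 14 of the 68 genes (20.6%) were lower at 3 and at 7 days, against 8.63% of the 8964 genes tested in all and 8.91% of all probe sets. They were Hnrnpa1, Hnrnpab, Hnrnpd, Hnrnpf, Hnrnph2, Hnrnph3, Hnrnpm, Hnrnpu, Lsm6, Sf3b1, Snrpb2, Snrpe, Snrpg and Srsf3, so 8 of the 14 were hnRNPs, which made up 19 of the 68 genes tested. A further 17 passed the test for a fall at 3 days alone, 7 at 7 days alone, and 25 passed in neither direction at either day. The comparisons at 3 and 7 days share no arrays, but both tests draw their spread from all 8 arrays. Of the 14 genes, only Hnrnpa1 and Snrpe kept the call at both days under the deposited scale, quantile normalization and median centring alike. A pass at one day and a miss at the other does not show a difference between the days, which was tested by the interaction term. By that term 6 genes had a higher and 8 a lower rcCHIL3 effect at 7 days than at 3 days, against 18.7% and 22.7% of all probe sets. On the deposited scale these became 11 and 1 of 70 genes tested, against 17.3% and 8.42% of all probe sets. Without MHM + GF replicate 1 at 7 days 11 were higher, and the 8 lower became 5 without MHM + GF replicate 2 at 7 days or either rcCHIL3 array of 3 days. The 6 were Lsm4, Lsm12, Srsf9, Lsm6, Snrpf and Hnrnpdl, all lower at 3 days, of which Lsm6 alone was also called lower at 7 days. The 8 were Prpf40b, Lsm10, Sf3b6, Prpf4b, Srsf6, Prpf19, Snrpd3 and Srsf5. The call of Srsf5 was lost in each of the 8 fits without 1 array (adjusted p of 0.0543 to 0.137). The interaction was 1.00 ± 0.20 for Lsm4 (limma adjusted p = 0.00229), -0.69 ± 0.12 for Prpf40b (adjusted p = 0.000769) and -0.40 ± 0.10 for Srsf6 (adjusted p = 0.00955).

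**Figure D4:**
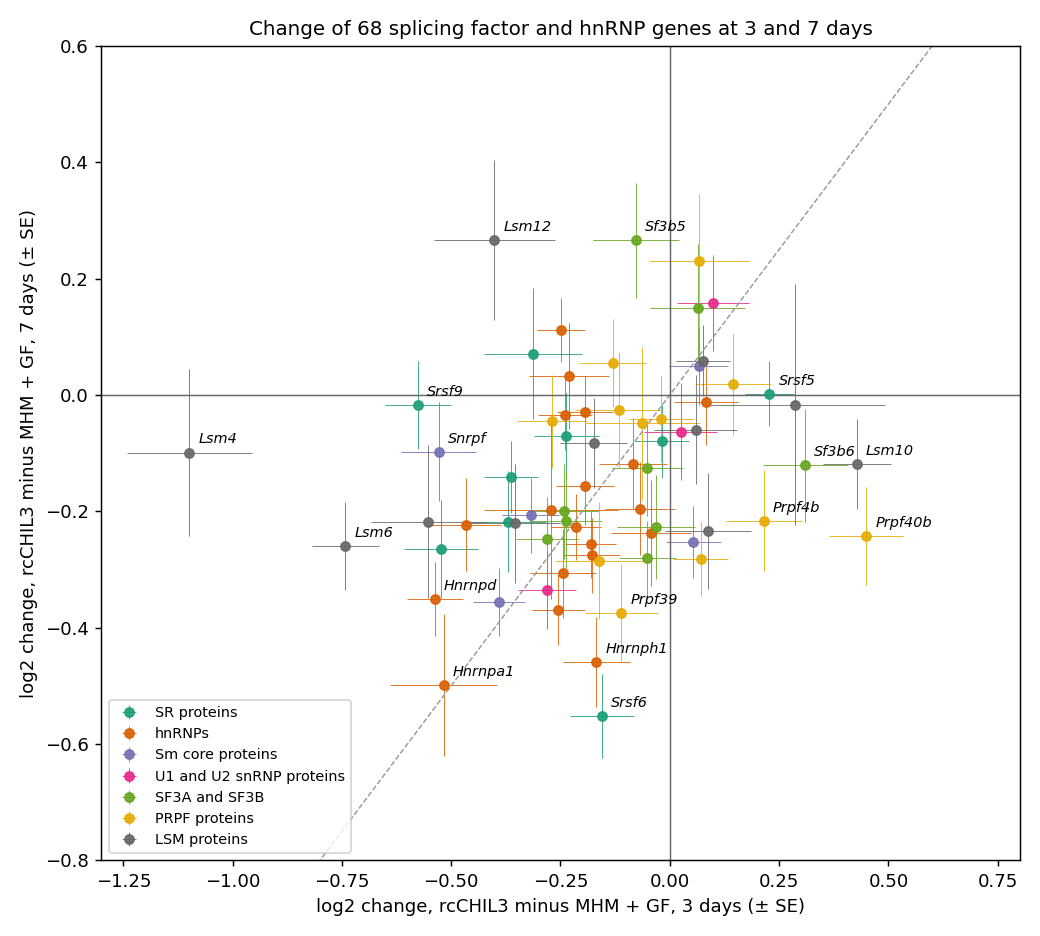
Log2 change with rcCHIL3 against MHM + GF at 3 days (x axis) and at 7 days (y axis) for the 68 splicing genes, with standard errors and colored by class. The dashed line marks equal change. Lsm4 (-1.10 and -0.10) and Srsf9 (-0.58 and -0.02) lay near 0 at 7 days, whereas Srsf6 (-0.16 and -0.55) lay below the line.

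Changes over time within each medium use the same arrays as the comparisons above and are no separate evidence. Between 3 and 7 days 16 genes fell and 3 rose with rcCHIL3, against 17.9% and 18% of all probe sets. With MHM + GF 22 fell and 13 rose, against 26% and 31.1%. On the deposited scale, where 70 genes were tested, the 16 falls with rcCHIL3 became 1 and the median of -0.06 turned to 0.038, with 7.09% of all probe sets falling and 15.7% rising. The 13 rises with MHM + GF became 4 on that scale, with 18.6% of all probe sets rising. Without either 3-day rcCHIL3 array, or without rcCHIL3 replicate 1 at 7 days, 7 genes fell with rcCHIL3, and none rose without replicate 1 at 3 days. Lsm4 fell by 1.13 on the log2 scale in MHM + GF and had a change of -0.13 with rcCHIL3. Lsm6 fell in both media (-0.39 with rcCHIL3 and -0.87 with MHM + GF), as did Srsf9 (-0.26 and -0.82), Snrpf (-0.30 and -0.73) and Hnrnpl (-0.40 and -0.67). Srsf6 fell with rcCHIL3 by 0.42 and had a change of -0.02 with MHM + GF. Prpf40b rose by 0.56 and Sf3b6 by 0.43 in MHM + GF, and the brightest probe set of Sf3b2 rose in both media (0.47 and 0.38), whereas its probe sets were called in opposite directions over time in MHM + GF. The lowest group mean of the 4 was that of rcCHIL3 at 7 days for 31 genes and that of rcCHIL3 at 3 days for 17. Such counts were not made over all genes tested, so they are no result particular to the splicing genes.

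Where a gene had several probe sets, these did not always move together. The 71 genes had 194 probe sets, 154 of them tested, and 39 genes had more than 1 tested. No gene had probe sets called in opposite directions at 3 days, and Hnrnpu had at 7 days. Over time, Hnrnpdl had such probe sets with rcCHIL3, and Hnrnpa2b1, Hnrnpab, Hnrnpu, Prpf31, Prpf4b and Sf3b2 had them in MHM + GF. Hnrnpu encodes the nuclear scaffold protein SAF-A, and its brightest probe set was lower at 7 days, averaging 1153 with rcCHIL3 and 1352 with MHM + GF (log2 change -0.23), whereas 2 dimmer ones were higher (0.38 each). Without rcCHIL3 replicate 2 at 7 days the brightest one of Hnrnpu missed the threshold (adjusted p = 0.0551). Hnrnpdl, which controls the splicing of its own mRNA, had 7 tested probe sets. At 3 days 4 of them were lower, by -0.25 to -0.84, and 3 stood between -0.09 and 0.02. At 7 days 2 of the 7 were higher and none lower. Srsf1, the founding SR protein, was lower in 5 of 6 probe sets at 3 days, and at 7 days 1 of the 6 was higher (0.57) and none lower. Levels of different probe sets are not comparable, and which transcripts each one detects was not analysed here.

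Sequence before the transcription start was read for the 62 splicing genes that RefSeq lists with a promoter window on GRCm38.p6, 83 windows in all, taking the 250 bases before each start. The median GC content was 60.4% over their windows and 52.4% over those of all 27025 genes listed. The windows were searched on both strands for 9 motifs. The ETS motif was searched as CCGGAAG, the CCAAT box by its name, the GC box as GGGCGG, the E-box as CACGTG and the TATA box as TATAAA. The E2F motif was searched as TTTGGCG and its variant as TTTCGCG. The NRF1 core was searched as TGCGCA and the Kaiso core as TCGCGAG. The E2F variant can overlap the Kaiso core, as the NRF1 core can the E-box. The ETS motif stood in at least 1 window of 27.4% of the splicing genes and 7.83% of all genes, the NRF1 core in 27.4% and 7.36%, the GC box in 66.1% and 35.4%, the CCAAT box in 48.4% and 37.5%, and the TATA box in 8.06% and 14.3%. The shares of the E-box were 8.06% and 6.86%, those of the Kaiso core 8.06% and 1.87%, those of the E2F motif 4.84% and 1.45% and those of its variant 3.23% and 0.814%. Among the 14 genes lower at both days the ETS motif stood in 28.6% and the NRF1 core in 21.4%, against 25.0% and 15.0% of the 20 genes with a window that passed at neither day. The E2F motif was found for 3 splicing genes, Lsm2, Srsf1 and Srsf2, all lower at 3 days, as were 28 of the 62 genes with a window. It stood in 0 of the 14 genes lower at both days, and a link between the motif and the changes was not tested. A match is a run of letters and no evidence of binding.

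The windows of 5 genes from 4 classes that were lower at both days follow, to show the letters behind these shares, with that of Lsm10, which was higher at 3 days. They run 5′ to 3′ on the gene's strand, end at the base before the start listed for the window, and carry the searched motifs in capitals. For Hnrnpa1, Hnrnpd and Lsm10 the gene as listed begins before that start. The window of Hnrnpa1 therefore lies wholly inside the gene, and those of Hnrnpd and Lsm10 lie partly inside it. Their positions on GRCm38.p6 are chr15:103240147-103240396 (plus strand) for Hnrnpa1, chr5:99978939-99979188 (minus strand) for Hnrnpd, chr2:143062819-143063068 (plus strand) for Snrpb2, chr6:86371290-86371539 (plus strand) for Snrpg, chr17:29032410-29032659 (plus strand) for Srsf3 and chr4:126096403-126096652 (plus strand) for Lsm10.
Hnrnpa1: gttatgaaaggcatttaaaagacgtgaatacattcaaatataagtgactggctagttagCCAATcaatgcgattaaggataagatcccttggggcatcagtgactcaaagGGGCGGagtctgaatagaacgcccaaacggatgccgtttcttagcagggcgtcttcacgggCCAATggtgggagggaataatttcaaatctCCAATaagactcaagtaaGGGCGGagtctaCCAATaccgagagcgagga
Hnrnpd: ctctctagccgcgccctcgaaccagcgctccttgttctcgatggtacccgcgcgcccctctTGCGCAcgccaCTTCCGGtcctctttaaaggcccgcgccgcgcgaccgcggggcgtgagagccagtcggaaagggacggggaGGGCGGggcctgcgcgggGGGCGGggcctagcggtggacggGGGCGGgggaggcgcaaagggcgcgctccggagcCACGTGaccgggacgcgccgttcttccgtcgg
Snrpb2: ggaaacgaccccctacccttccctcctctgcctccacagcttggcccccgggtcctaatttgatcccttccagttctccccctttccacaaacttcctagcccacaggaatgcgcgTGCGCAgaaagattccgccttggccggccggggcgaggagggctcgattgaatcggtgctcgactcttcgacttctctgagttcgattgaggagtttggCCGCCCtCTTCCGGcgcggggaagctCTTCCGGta
Snrpg: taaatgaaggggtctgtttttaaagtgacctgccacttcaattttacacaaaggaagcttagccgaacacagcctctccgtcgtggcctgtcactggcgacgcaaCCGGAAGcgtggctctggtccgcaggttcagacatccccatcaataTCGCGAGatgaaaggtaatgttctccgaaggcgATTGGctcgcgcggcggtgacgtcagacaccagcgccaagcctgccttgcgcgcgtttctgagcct
Srsf3: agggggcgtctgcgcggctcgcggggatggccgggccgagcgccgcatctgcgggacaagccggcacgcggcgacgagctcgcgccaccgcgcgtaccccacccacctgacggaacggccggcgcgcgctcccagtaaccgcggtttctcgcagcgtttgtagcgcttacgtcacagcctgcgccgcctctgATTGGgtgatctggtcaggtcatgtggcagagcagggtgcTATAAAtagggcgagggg
Lsm10: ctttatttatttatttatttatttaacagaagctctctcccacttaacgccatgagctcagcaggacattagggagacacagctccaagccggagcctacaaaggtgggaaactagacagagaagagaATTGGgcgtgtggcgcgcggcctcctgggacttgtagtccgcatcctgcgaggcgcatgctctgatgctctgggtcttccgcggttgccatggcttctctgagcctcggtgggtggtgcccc
Hnrnpa1, Snrpg, Srsf3 and Lsm10 carry a CCAAT box, with a GC box in Hnrnpa1, a TATA box in Srsf3, and the ETS motif and Kaiso core in Snrpg. Hnrnpd and Snrpb2 carry the ETS motif, a GC box and the NRF1 core, and Hnrnpd an E-box as well.

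Other proteins of the splicing machinery were measured beside these families, and their counts stand beside 22.5% lower and 27.7% higher at 3 days and 22.7% and 21.3% at 7 days over all probe sets. Of 31 further spliceosome genes tested, 10 were lower and none higher at 3 days (median -0.16), and 7 were lower and 2 higher at 7 days (median -0.11). The 7 lower (22.6%) were near the share of all probe sets and are no result about these genes. Snrnp70, the U1 protein that binds stem loop I, was lower at both days (-0.21 and -0.49), and Cdc5l, a partner of Prpf19, likewise (-0.45 and -0.23). The smaller of these changes were lost without 1 array, up to an adjusted p of 0.285 for Snrnp70 (MHM + GF replicate 1 at 3 days) and 0.0881 for Cdc5l (MHM + GF replicate 2 at 7 days). Snrnp25, a protein of the minor spliceosome, was lower at 3 days and higher at 7 days, with 99.9 and 118 against 187 and 176 and then 163 and 154 against 102 and 116. The log2 changes of Snrnp25 were -0.65 ± 0.10 and 0.47 ± 0.10 (limma adjusted p = 0.000165 and 0.00215).

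Of the 11 genes of snRNP assembly tested, 5 were lower and 1 higher at 3 days, and 1 lower and 2 higher at 7 days. Prmt5, the methyltransferase that modifies Sm proteins before assembly, was also lower at 3 days and higher at 7 days, with 92.8 and 81.4 against 130 and 145 at 3 days and 115 and 117 against 80.8 and 78.3 at 7 days. Its log2 changes were -0.55 and 0.45. Gemin8, of the SMN complex, was lower at 3 days (-0.55) and differed by 0.01 at 7 days. Tgs1, which adds the trimethyl cap of snRNAs, was higher at 3 days (0.25) and lower at 7 days (-0.41), the first lost without rcCHIL3 replicate 2 (adjusted p = 0.357), either MHM + GF array or on the deposited scale (0.319).

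Among 7 kinases that phosphorylate SR proteins, 2 were lower and 2 higher at 3 days, and 4 lower and 1 higher at 7 days. Clk1 had 344 and 330 with rcCHIL3 against 545 and 542 with MHM + GF at 3 days, and 419 and 401 against 595 and 548 at 7 days (-0.66 ± 0.07 and -0.46 ± 0.07, limma adjusted p = 8.55e-06 and 0.00024). Clk2 was lower at both days (-0.25 and -0.41), whereas Dyrk1a was higher at both (0.60 and 0.32). Clk2 missed the threshold at 3 days without any 1 array of that day (adjusted p up to 0.151), and Dyrk1a at 7 days without rcCHIL3 replicate 1 (0.085) or MHM + GF replicate 2 (0.0821). In the exon junction complex and mRNA export, 3 of 13 genes were lower and 2 higher at 3 days, and 4 lower and none higher at 7 days. The 3 of 13 (23.1%) were near the share of all probe sets and are no result about these genes. The export adaptor Alyref was lower at both days (-0.66 and -0.43), and Ncbp2, of the cap-binding complex, was higher at 3 days (0.40).

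Of 36 other splicing regulators, 14 were lower and 7 higher at 3 days, and 17 lower and 3 higher at 7 days. The neuronal Elavl4 and Celf4 were higher at 3 days and lower at 7 days. Elavl4 had 89.8 and 87.4 with rcCHIL3 against 42.4 and 48.3 with MHM + GF at 3 days (0.73 ± 0.10), and 24.1 and 21.4 against 145 and 130 at 7 days (-1.88 ± 0.10, limma adjusted p = 1.18e-07). The order of the 4 group means of Elavl4 was that of the summed neuroblast and neuron markers, and the part of those cells in it was not tested. Celf4 changed by 1.123 and -0.39, the 7-day call being lost without MHM + GF replicate 1 (adjusted p = 0.0768). Elavl2 was lower at both days (-0.47 and -1.59), at 3 days not without replicate 1 of either medium (adjusted p up to 0.157). Khdrbs3, a STAR family splicing regulator, was lower at 3 days (-0.999) and had a difference of -0.14 at 7 days.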

How the data were processed

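Total RNA of 8 cultures was hybridised to Affymetrix Mouse Genome 430 2.0 arrays after labelling by a 3′ IVT kit, so probe sets read mostly the 3′ ends of transcripts. The authors deposited MAS5 signals as linear intensity values, and the submitters' processing notes name Affymetrix Expression Console 1.1. The values were not logged, and their averages over 45101 probe sets differed between arrays. For this reason every array's signals were brought to a common average of 100, the value the study's description names. The 64 control probe sets were left out of the test. Probe sets with a signal of at least 50 on at least 2 of 8 arrays were kept (15679), and log2(signal + 20) was fitted by limma 3.58.1 in R 4.3.3 with 4 group means, 4 residual degrees of freedom and eBayes with a trend. Log2 changes are on this scale and understate those of dim genes. P-values were two-sided and adjusted by Benjamini-Hochberg over all 15679, with a threshold of 0.05. The fit was tested on simulated data, where recovery of calls was required only for changes larger than nearly all those of the splicing genes.

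Gene names came from the platform annotation, where 34958 probe sets name 1 gene, 932 several and 9211 none. Promoters came from RefSeq. Of the chosen probe sets, 15 carry a suffix for possible matches to other transcripts. Among them are those of Hnrnpab, Hnrnpf, Hnrnpu, Lsm6, Snrpe and Snrpg, which were lower at both days. Snrpe had no other probe set annotated to it alone, so the choice of probe sets without a suffix could not check it. The genes and lists were chosen with earlier results of these data known, so no test was made over a list. Named by rule were, at each day, up to 10 genes with the largest rise and fall past the threshold whose arrays did not overlap, the brightest and the least changed (at 3 days) of each class, 5 in each direction by interaction and by change over time in each medium, genes whose probe sets passed in opposite directions, and up to 4 of each further list. Genes named outside this rule were chosen after their values were seen. Alternatives changed the offset, filter, scale, prior, test, probe set choice, samples and replicate block. Arrays of 1 number in different groups were not shown to share an experiment. The number of arrays limits the precision.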

Additional observations from a re-analysis of the deposited data

Results flagged for a closer look

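By limma's interaction term, the effect of rcCHIL3 differed between 3 and 7 days upward for 6 splicing genes (8.82%) and downward for 8 (11.8%). Both shares were below those of all probe sets, 18.7% and 22.7%. The largest upward interactions on the log2 scale were those of Lsm4 (1.00), Lsm12 (0.67), Srsf9 (0.56), Lsm6 (0.48) and Snrpf (0.43), all of which were lower with rcCHIL3 at 3 days. The largest downward ones were those of Prpf40b (-0.69), Lsm10 (-0.55), Sf3b6 (-0.43), Prpf4b (-0.43) and Srsf6 (-0.40). Their adjusted p-values lay between 0.000769 for Prpf40b and 0.0263 for Sf3b6. Prpf4b passed at neither day alone, with 0.22 at 3 days and -0.22 at 7 days, and its probe sets were called in opposite directions over time in MHM + GF. With the signals on the deposited scale 11 interactions of 70 genes tested were upward and 1 was downward, against 17.3% and 8.42% of all probe sets on that scale.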

How the results depend on the processing

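With 2 arrays in each group, the counts moved with the scale and with single arrays. At 3 days the deposited scale gave 2 higher genes and a median of -0.26, median centring a median of -0.20, and the methods' t-test 20 lower genes unadjusted and 6 lower and 2 higher after Benjamini-Hochberg. At 7 days the deposited scale gave 5 lower genes and a median of -0.053. The 1 higher gene at 7 days was called by none of a floor of 10 with no offset, no filter, quantile normalization, median centring, eBayes without a trend and the t-test in either form (0 each), while 2 were higher with probe sets without a suffix, at a median of -0.12. The t-test after Benjamini-Hochberg called 0 lower genes at 7 days. The median at 7 days was -0.18 with a filter of 100 and with quantile normalization. For rcCHIL3 over time, 1 gene was higher and 6 lower with no filter, 1 lower on the deposited scale, 1 higher with median centring and with probe sets without a suffix, 6 higher with only the groups compared, and 0 in each direction by the adjusted t-test against 10 lower unadjusted. The median there turned to 0.038 on the deposited scale and was -0.077 with centring and -0.023 with probe sets without a suffix. For MHM + GF over time, the deposited scale gave 4 higher genes and a median of -0.13, the adjusted t-test 5 higher and 3 lower, the unadjusted one 13 lower, and medians were -0.079 with centring, -0.022 with probe sets without a suffix and -0.11 over all probe sets of a gene. For the interaction, no filter gave 5 lower, the deposited scale 11 higher, 1 lower and a median of 0.19, and the filter of 100 a median of -0.014. The cause of these moves was not tested.

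Leaving out 1 array at a time gave 2 to 6 higher and 20 to 32 lower genes at 3 days (medians -0.18 to -0.16), 0 to 2 and 17 to 23 at 7 days (-0.16 to -0.12), 0 to 4 and 7 to 16 over time in rcCHIL3 (-0.078 to -0.048), 9 to 13 and 16 to 22 in MHM + GF (-0.077 to -0.04), and 4 to 11 and 5 to 8 for the interaction (-0.015 to 0.028). Of the genes called, 17 of 35 at 3 days and 12 of 23 at 7 days kept their call in all 8 such fits. A replicate block gave 32 lower genes at 3 days, 27 at 7 days, and 10 in each direction for the interaction. Deviations of same-numbered arrays from their group means correlated at -0.01 to 0.10, so the numbers were not taken as pairs. Of 2189 comparisons of a named gene with an alternative, 1959 kept direction and side of the threshold, 166 lost the call, 28 gained one, 36 changed the sign of an uncalled difference, and none reversed a call.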
